A study of Homo sapiens with 24 samples.

Results

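A set of 7 genes that the transcriptional coactivator YAP is known to activate was followed through every library of a PRMT5 inhibitor experiment: CTGF, CYR61, ANKRD1, AMOTL2, AJUBA, LATS2 and AXL. They were chosen by name, all 7 were found, and they are 7 of the 16591 gene symbols in the deposited table. The list was picked with drug results of these libraries already known, so the levels and changes of the 7 genes are given below as a description without p-values. Where a member is said to be called, that names its side of the limma threshold and is no test of it. Groups of 2 libraries can lie apart without a change, and the share of all genes whose groups do not overlap was not computed. Statements on overlap therefore only describe the libraries.

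EPZ015666 inhibits PRMT5, an enzyme that methylates arginines on histones, splicing factors and other proteins. Poly(A) RNA was sequenced from 4 human cancer cell lines, the ovarian lines OVCAR8 and COV362 and the breast lines BT549 and MDAMB436. The groups were OVCAR8 and BT549 under 5 µM EPZ015666 for 5 days or for 3 days, COV362 and MDAMB436 under 5 µM EPZ015666 for 5 days, and each of these 6 beside cultures of its own line and day that received only the DMSO vehicle. Each of the 12 groups held 2 libraries, A and B, and the recovered reads per library ran from 23.76 M to 44.94 M with a median of 27.785 M. Whether A and B were grown as separate cultures is not stated, and p-values therefore reflect only the spread between libraries, which may be technical. Each line is 1 established culture, so a difference between lines is not a difference between tumour types. In bulk RNA, fewer expressing cells and less RNA per cell cannot be told apart.

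YAP and its paralogue TAZ are the coactivators at the end of the Hippo pathway. When the kinases LATS1 and LATS2 are active, YAP and TAZ are phosphorylated and kept in the cytoplasm; when they are not, YAP and TAZ enter the nucleus and bind DNA through the TEAD factors. Several of the genes that are switched on in this way, LATS2, AMOTL2 and AJUBA among them, encode components of the pathway itself.

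The letters bound by TEAD factors, GGAATG on either strand (CATTCC on the other strand), were searched in RefSeq promoter windows of GRCh38.p14 that run from 250 bases before to 50 bases after a transcription start. RefSeq windows were found for 6 of the 7 genes, under the name CCN2 for CTGF, and CYR61 was without one. Of the 9 windows, 6 held the motif, and each of the 6 genes had at least 1 window that did. Among all 35116 windows of this kind 14.03% held at least 1 match, 1.37% at least 2 and 0.128% (45 windows) at least 3. The CTGF window held 3 matches, which start at positions -169, -104 and -95 from the RefSeq start, and the ANKRD1 window held 2, at -220 and -128. The sequences of these 2 genes are shown because their windows held the most matches. They give the minus strand, 5′ to 3′, from position -250 to the last base before the gene start of GENCODE v29, with the motif in capitals. For CTGF that is chr6:131951374-131951622, and for ANKRD1 chr10:90921277-90921337, which leaves out the match at -128 because GENCODE starts ANKRD1 further 5′ than RefSeq.
CTGF: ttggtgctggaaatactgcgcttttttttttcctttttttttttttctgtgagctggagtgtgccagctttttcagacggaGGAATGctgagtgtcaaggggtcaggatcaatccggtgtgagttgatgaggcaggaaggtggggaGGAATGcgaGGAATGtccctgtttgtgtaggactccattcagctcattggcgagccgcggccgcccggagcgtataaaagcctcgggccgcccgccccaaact
ANKRD1: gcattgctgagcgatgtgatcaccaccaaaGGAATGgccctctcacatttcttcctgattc
The match in AMOTL2 (in 1 of 2 windows, at -69) and in AXL (1 of 2 windows, at -212) read CATTCC on the gene's strand. Those of AJUBA (1 of 2 windows, at -59) and LATS2 (at 10 bases into the transcript) read GGAATG. A match is a stretch of letters and says nothing about binding in these cells.

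The 7 genes differ widely in how the deposited values describe them. RPKM was computed by the authors over the whole gene span with its introns, so a gene with long introns has a low RPKM even when it has many reads. LATS2 (chromosome 13, bases 20973032 to 21061547 in GRCh38) spans 88516 bases, of which 6.3% are exonic. Its RPKM stayed between 0.470 and 1.28, yet it had 1336 to 3454 reads per library. CTGF (chromosome 6, 131948176 to 131951373) and CYR61 (chromosome 1, 85580761 to 85583962) span 3198 and 3202 bases, of which 73.1% and 76.7% are exonic. AXL lies on chromosome 19 from 41219203 to 41261766, AMOTL2 on chromosome 3 from 134355874 to 134375479, AJUBA on chromosome 14 from 22971174 to 22982642 and ANKRD1 on chromosome 10 from 90912096 to 90921276. AJUBA overlaps the gene AL132780.3 on the same strand, and AMOTL2 holds the processed pseudogene RPL39P5. The strand setting of the counting is not given, and CTGF, LATS2 and AXL each lie opposite an antisense gene, so reads of these pairs may be shared.

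Vehicle cells of the 4 lines carried these genes at very different levels. To lessen the effect of intron length, RPKM was recomputed over the exon length (exonic RPKM). Any reads counted in introns would raise it for genes such as AXL (12.1% exonic) and ANKRD1 (21.6%). Whether such reads were counted was not tested, so the order of genes is approximate. CYR61 led in OVCAR8 with 739 ± 9.93 (SD, n = 2) at day 5, followed by AXL at 243 ± 17.1, AMOTL2 at 156 ± 5.05 and ANKRD1 at 145 ± 3.94. CYR61 also led in BT549, at 169 ± 2.04, ahead of CTGF at 85.5 ± 3.52. In COV362 ANKRD1 led with 86.7 ± 1.42 and CYR61 had 45.6 ± 0.170. CYR61 led in MDAMB436 with 62.4 ± 2.46, and AMOTL2 followed at 45.3 ± 1.11. AJUBA was low in every line, between 0.721 and 4.07.

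**Figure D1:**
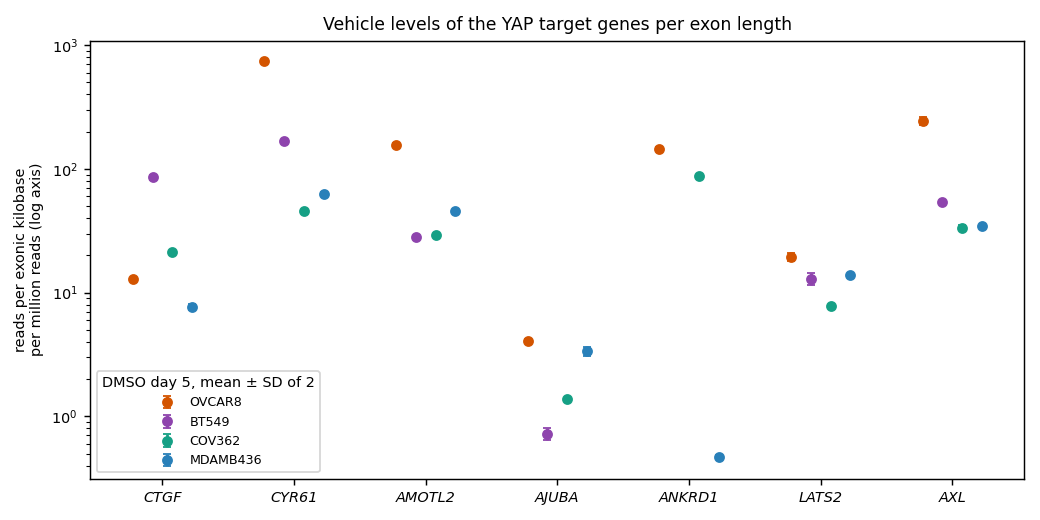
Levels of the 7 genes in DMSO cultures at day 5, as exonic RPKM (recovered reads per kilobase of exon, scaled to depth) on a log axis; each point is the mean of 2 libraries of a line and the bars are ± SD. OVCAR8 is highest for 6 of the 7 genes and BT549 for CTGF; ANKRD1 has no point in BT549, where both libraries had 0 reads.

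The order of the lines was described with 1 limma fit over the 24 libraries and 6494 genes. A total of 6 members passed the filter of a mean of 1 RPKM, ANKRD1 through OVCAR8 and COV362. These 6 were all called between OVCAR8 and BT549, OVCAR8 and COV362, OVCAR8 and MDAMB436, and BT549 and MDAMB436. Of all tested genes 84.2%, 84.2%, 87.3% and 85.8% were called in these pairs. The count was 5 of 6 for BT549 against COV362 and 5 of 6 for COV362 against MDAMB436, beside 84.4% and 83.8% of all tested genes. At such background shares the counts describe the distance between lines and not these genes.

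CTGF (connective tissue growth factor), a secreted matricellular protein, had 64.7 and 68.6 RPKM in BT549 vehicle cells at day 5, 15.1 and 15.7 in COV362, 9.03 and 9.43 in OVCAR8 and 5.6 and 5.17 in MDAMB436. No neighbouring lines in that order overlapped, and the differences between neighbours were many times their SE (BT549 minus COV362 2.05 ± 0.045 on the log2 scale; OVCAR8 minus COV362 -0.68 ± 0.045; OVCAR8 minus MDAMB436 0.68 ± 0.045). CYR61, a second member of the same secreted family, took another order. It had 553 and 566 RPKM in OVCAR8, 137 and 140 in BT549, 47.3 and 44.9 in MDAMB436 and 34.5 and 34.4 in COV362. Its 2 lowest lines did not overlap (COV362 minus MDAMB436 -0.41 ± 0.032).

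ANKRD1, a nuclear ankyrin repeat protein first studied in heart muscle, was close to present or absent by line. It had 31.4 and 30.4 RPKM in OVCAR8 and 18.2 and 18.7 in COV362 (OVCAR8 minus COV362 0.72 ± 0.039). MDAMB436 had 0.1 and 0.0954 RPKM, or 28 and 25 reads. In BT549 6 of the 8 libraries of both treatments and days had 0 reads and the other 2 had 1 read each. Against a floor of 3 reads per library in BT549, ANKRD1 was at least 2320-fold higher in OVCAR8.

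AMOTL2, an angiomotin-like scaffold that holds YAP at cell junctions, had 45.7 and 48.1 RPKM in OVCAR8 and 13.5 and 13.1 in MDAMB436. BT549 had 8.88 and 9.32 RPKM and COV362 8.70 and 8.85, a difference within its SE (0.05 ± 0.053). AXL, a receptor tyrosine kinase activated by GAS6, had 27.6 and 30.6 RPKM in OVCAR8 and 6.91 and 7.02 in BT549. COV362 with 3.84 and 4.12 RPKM and MDAMB436 with 4.0 and 4.03 overlapped (COV362 minus MDAMB436 -0.01 ± 0.045). AJUBA, a LIM protein that restrains LATS kinases, had means of 2.09 RPKM in OVCAR8, 1.69 in MDAMB436, 0.714 in COV362 and 0.401 in BT549. Its smallest step, OVCAR8 minus MDAMB436, was 0.20 ± 0.060 and was not called without library B of MDAMB436. LATS2, a core Hippo kinase, was too low in RPKM for the fit, with means of 1.21 RPKM in OVCAR8, 0.866 in BT549, 0.849 in MDAMB436 and 0.480 in COV362. The BT549 and MDAMB436 libraries of LATS2 overlapped, and on exonic RPKM MDAMB436 (14.0 ± 0.044) stood above BT549 (12.9 ± 1.41).

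Under EPZ015666 the genes did not move as 1 group, and the direction depended on the line. In COV362 all 5 that could be tested were higher, with ANKRD1, CYR61 and CTGF at more than 2-fold. In OVCAR8 CTGF was higher while CYR61, AMOTL2 and AXL were lower, at both days. In BT549 CTGF and AMOTL2 were lower and AXL higher, at both days. In MDAMB436 CYR61, AMOTL2 and AJUBA were lower and the CTGF libraries of the 2 treatments overlapped.

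**Figure D2:**
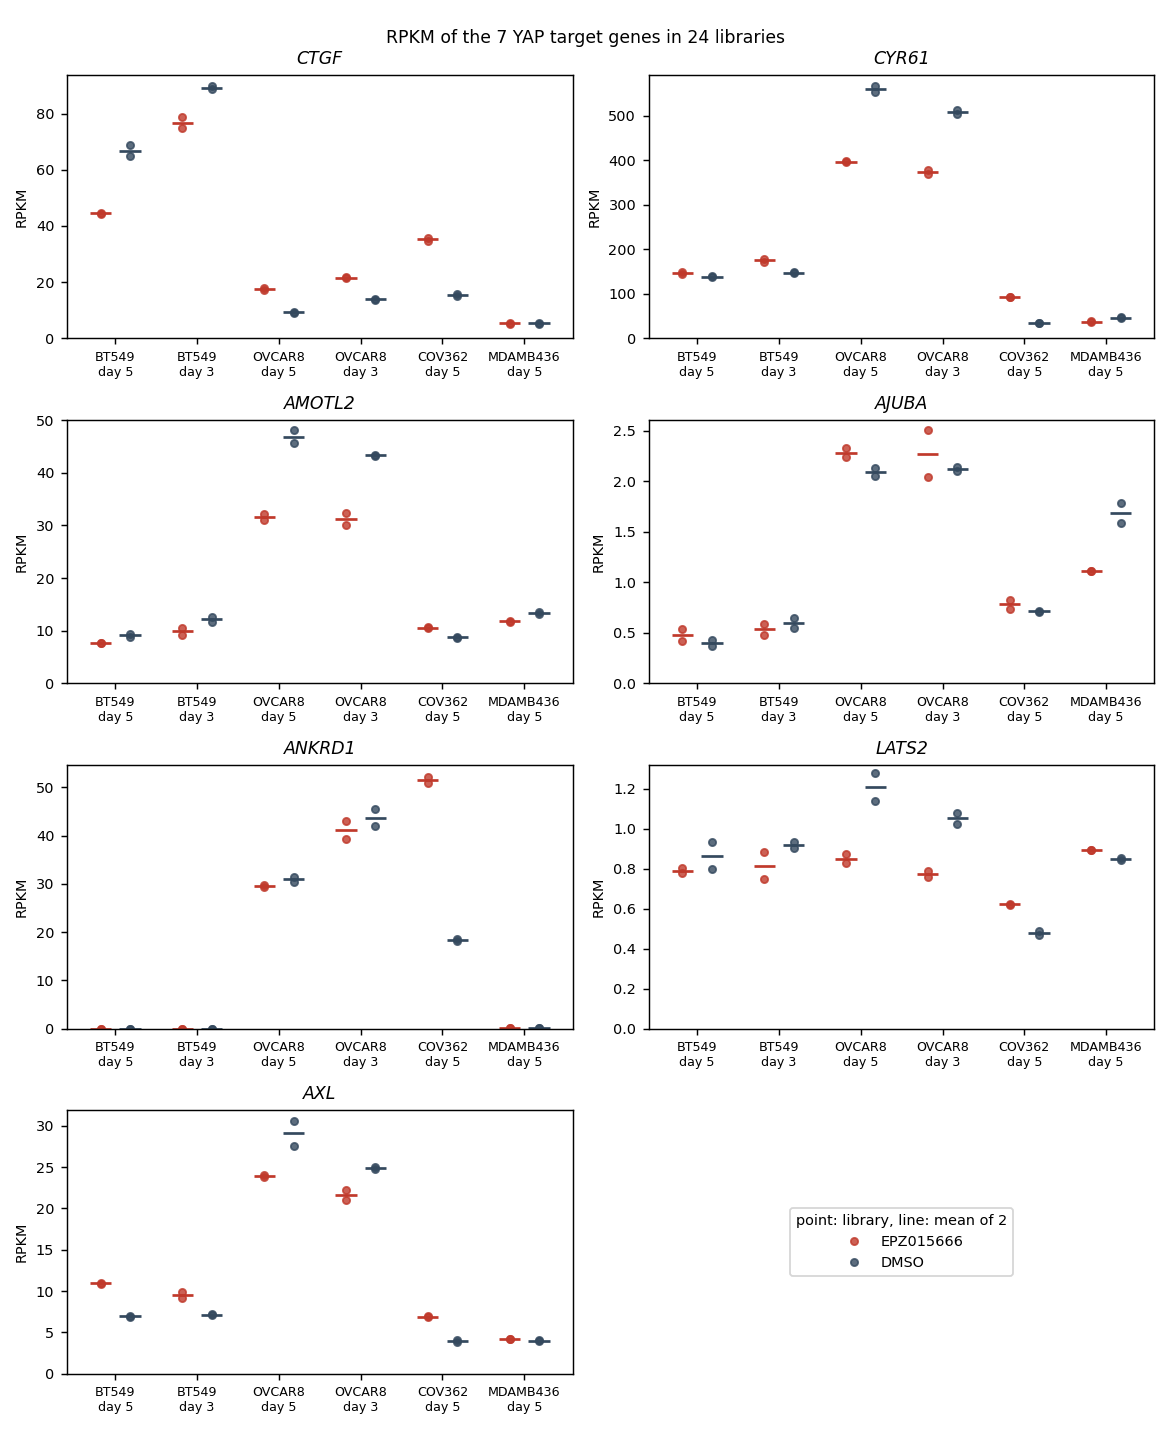
RPKM of each of the 7 genes in the 24 libraries, by line and day; each point is a library and each short line the mean of 2, with EPZ015666 to the left of DMSO and a separate axis per gene that starts at 0. CTGF is higher under EPZ015666 in OVCAR8 and COV362 and lower in BT549, while CYR61 is lower in OVCAR8 and higher in COV362.

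The counts of calls were read from limma on log2(RPKM + 1), fitted per line with an adjusted p of 0.05 as the threshold. Of the members, 4 passed the filter in BT549 at day 5, and 1 was called higher and 2 lower, beside 17.7% of tested genes called higher and 22.7% called lower. At day 3, 2 of 4 were called higher and 2 lower, beside 9.22% and 10.8%. In OVCAR8 at day 5, 1 of 6 was called higher and 3 lower, beside 21.1% and 35.1%. At day 3, 1 of 6 was called higher and 3 lower, beside 15.6% and 21.4%. The 5 tested in COV362 were all called higher, beside 39.3% called higher and 31.5% called lower, and 3 of 5 were called lower in MDAMB436, beside 19.0% and 23.2% called higher and lower. For OVCAR8 at day 5 the split over all genes depended on the scaling: 1338 higher and 2220 lower as deposited, and 1780 higher and 1784 lower after median-of-ratios scaling. The members were chosen with these contrasts in view, so nothing is read from the counts.

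A second fit on the reads recovered from the RPKM values (limma-voom, genes with at least 1 CPM in 2 libraries) could also test LATS2 and AJUBA, and ANKRD1 where it had reads. It called 3 of 6 members in BT549 at day 5 (42.3% of all genes), 4 of 6 at day 3 (25.2%), 5 of 7 in OVCAR8 at day 5 (55.3%) and 5 of 7 at day 3 (37.9%). It called 6 of 7 in COV362 (70.7%) and 3 of 7 in MDAMB436 (48.3%). No member that both fits tested was called in opposite directions by them.

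CTGF, the secreted matricellular protein, had both directions among the lines. In COV362 it had 35.8 and 34.7 RPKM under EPZ015666, against 15.1 and 15.7 under DMSO. The groups did not overlap, and the ratio of means was 2.29 (log2 change 1.14 ± 0.031). In OVCAR8 it had 17.1 and 18.1 RPKM under EPZ015666 at day 5, against 9.03 and 9.43 under DMSO, a ratio of 1.91 (log2 change 0.86 ± 0.037). At day 3 it had 21.9 and 21.3 RPKM under EPZ015666 in OVCAR8, against 14.1 and 13.8 under DMSO, a ratio of 1.55 (0.60 ± 0.037). CTGF was thus higher in every EPZ015666 library of both ovarian lines than in the vehicle libraries of the same day.

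The breast lines differed from this. In BT549 CTGF had 44.2 and 44.6 RPKM under EPZ015666 at day 5, against 64.7 and 68.6 under DMSO, a ratio of 0.666 (log2 change -0.57 ± 0.052). At day 3 it had 78.8 and 74.8 RPKM under EPZ015666, against 89.7 and 88.7 under DMSO, a ratio of 0.861 (-0.21 ± 0.052). The groups did not overlap at either day, but the call at day 3 was lost in 7 of the 8 fits that each left out 1 library of BT549 (log2 change -0.25 to -0.18), the exception being the fit without library A of the day 3 EPZ015666 group. In MDAMB436 the EPZ015666 libraries had 5.48 and 5.04 RPKM, against 5.6 and 5.17 under DMSO, and the groups overlapped (-0.03 ± 0.056).

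CYR61 went the other way from CTGF in 2 lines. In OVCAR8 at day 5 it had 396 and 397 RPKM under EPZ015666, against 553 and 566 under DMSO, a ratio of 0.709 (log2 change -0.49 ± 0.033). At day 3 it had 377 and 369 RPKM, against 513 and 503 under DMSO, a ratio of 0.734 (-0.45 ± 0.033). Both days were without overlap, so in OVCAR8 this gene, the highest of the 7, was lower wherever CTGF was higher. BT549 libraries of day 3 had CYR61 at 179 and 171 RPKM under EPZ015666, against 146 and 149 under DMSO, and it was called higher (1.18-fold, 0.24 ± 0.049). At day 5 in BT549 it had 145 and 148 RPKM, against 137 and 140 under DMSO. These groups did not overlap either, but the change of 0.08 ± 0.049 did not pass. In COV362 CYR61 and CTGF were both higher. CYR61 had 91.9 and 93.0 RPKM under EPZ015666 there, against 34.5 and 34.4 under DMSO, a ratio of 2.69 (1.40 ± 0.024). In MDAMB436 it had 37.0 and 37.6 RPKM, against 47.3 and 44.9 under DMSO, a ratio of 0.810 (-0.30 ± 0.043), and again the groups were apart.

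ANKRD1 changed in 1 of the lines that expressed it. In COV362 it had 50.9 and 52.1 RPKM under EPZ015666, against 18.2 and 18.7 under DMSO, a ratio of 2.80 (log2 change 1.43 ± 0.029). That was the 15th highest change of 6300 genes in COV362, with CYR61 at the 19th and CTGF at the 37th place. OVCAR8 libraries of day 5 had ANKRD1 at 29.8 and 29.5 RPKM under EPZ015666, against 31.4 and 30.4 under DMSO (-0.06 ± 0.056), and at day 3 39.4 and 43.0 RPKM, against 45.5 and 42.0 under DMSO (-0.08 ± 0.056). Neither passed, and the groups overlapped at day 3. In MDAMB436 there were 43 and 40 reads under EPZ015666, against 28 and 25 under DMSO, which the fit on reads did not call (0.51 ± 0.294).

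AMOTL2, AJUBA and LATS2 encode parts of the Hippo pathway. AMOTL2 was lower in 3 lines. In OVCAR8 at day 5 it had 32.1 and 30.9 RPKM under EPZ015666, against 45.7 and 48.1 under DMSO, a ratio of 0.673 (log2 change -0.56 ± 0.046), and at day 3 32.4 and 30.0 RPKM, against 43.3 and 43.4 under DMSO, a ratio of 0.720 (-0.46 ± 0.046). AMOTL2 in BT549 at day 5 had 7.70 and 7.61 RPKM, against 8.88 and 9.32 under DMSO (-0.22 ± 0.070), and at day 3 10.6 and 9.24 RPKM, against 11.6 and 12.7 under DMSO (-0.27 ± 0.070). In MDAMB436 it had 11.7 and 11.9 RPKM, against 13.5 and 13.1 under DMSO (-0.16 ± 0.038). None of these 5 pairs of groups overlapped. COV362 differed in direction, with 10.5 and 10.7 RPKM under EPZ015666, against 8.70 and 8.85 under DMSO, a ratio of 1.21 (0.25 ± 0.027). Leaving out single libraries ended the AMOTL2 call in 4 of 8 fits in BT549 at day 5 (any of the 4 libraries of that day), 6 of 8 at day 3 (all but library A of either day 3 group) and 3 of 4 in MDAMB436 (all but library B of DMSO). The call in BT549 at day 5 was also lost after median-of-ratios scaling.

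LATS2 could be called from the recovered reads. In OVCAR8 it had 0.828 and 0.875 RPKM under EPZ015666 at day 5, against 1.14 and 1.28 under DMSO, and was called lower (log2 change in reads -0.51 ± 0.056). At day 3 it had 0.788 and 0.759 RPKM, against 1.02 and 1.08 under DMSO, and was again lower (-0.44 ± 0.058). In COV362 it had 0.621 and 0.623 RPKM, against 0.470 and 0.490 under DMSO, and was called higher (0.37 ± 0.048). LATS2 thus had the direction of AMOTL2 in both ovarian lines. In the breast lines it was not called: means were 0.790 RPKM under EPZ015666 and 0.866 under DMSO in BT549 at day 5, 0.816 and 0.920 at day 3, and 0.895 and 0.849 in MDAMB436. AJUBA was called in 1 of the 6 comparisons, MDAMB436, with 1.11 and 1.11 RPKM under EPZ015666, against 1.79 and 1.59 under DMSO, a ratio of 0.661 (-0.34 ± 0.046 in RPKM and -0.60 ± 0.096 in reads). For OVCAR8 at day 3, where its change did not pass, it was called higher without library B of EPZ015666. Its other changes did not pass in either fit, on 102 to 859 reads per library.

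AXL was higher in 2 lines and lower in 1. In BT549 at day 5 it had 10.9 and 11 RPKM under EPZ015666, against 6.91 and 7.02 under DMSO, a ratio of 1.57 (log2 change 0.58 ± 0.049), and at day 3 9.92 and 9.11 RPKM, against 7.10 and 7.21 under DMSO, a ratio of 1.33 (0.37 ± 0.049). In COV362 it had 6.87 and 6.92 RPKM, against 3.84 and 4.12 under DMSO, a ratio of 1.73 (0.66 ± 0.037). These groups were all apart. In OVCAR8, the line with the most AXL, it had 24 and 23.9 RPKM at day 5, against 27.6 and 30.6 under DMSO (-0.27 ± 0.053), and 22.2 and 21.0 RPKM at day 3, against 25.0 and 24.8 under DMSO (-0.20 ± 0.053). The call at day 3 was lost in 5 of the 8 fits that left out 1 library of OVCAR8 (either EPZ015666 library of day 5, either DMSO library of day 3, or library B of EPZ015666 at day 3). In MDAMB436 AXL had 4.23 and 4.24 RPKM under EPZ015666, against 4.0 and 4.03 under DMSO. The groups did not overlap there, but the change of 0.06 ± 0.033 did not pass.

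**Figure D3:**
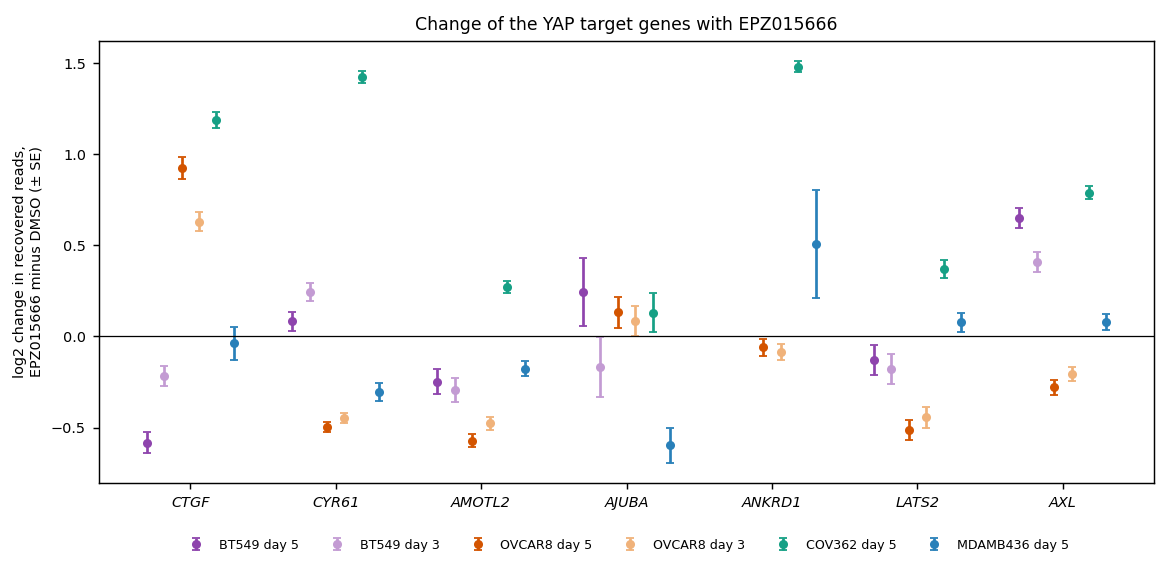
Log2 change of the 7 genes in recovered reads, EPZ015666 minus DMSO, in the 6 comparisons of line and day; points are limma-voom estimates and bars ± SE. The COV362 points are above 0 for all 7 genes, and the OVCAR8 points are above 0 for CTGF and below 0 for CYR61, AMOTL2, LATS2 and AXL; ANKRD1 has no point in BT549.

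The drug effect at day 5 was compared between the 4 lines with limma's F test. It called all 6 members that passed the filter, ANKRD1 through OVCAR8 and COV362 alone, beside 74.4% of all tested genes. The members were picked with these drug results known, so nothing is read from this count. The distance between the highest and the lowest of the 4 log2 changes was 1.89 for CYR61, 1.72 for CTGF, 1.49 for ANKRD1, 0.93 for AXL, 0.80 for AMOTL2 and 0.43 for AJUBA. For CTGF the extremes were COV362 and BT549, and for CYR61 COV362 and OVCAR8.

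The drug effect was also compared between days in the lines that had both. In BT549 1 of 4 tested members was called, beside 5.97% of tested genes, and in OVCAR8 1 of 6, beside 7.46%. Both were CTGF, and as a member picked with these drug results known it is given as a description. Its fall in BT549 was larger at day 5 than at day 3 by 0.36 ± 0.074 on the log2 scale, and its rise in OVCAR8 was larger at day 5 than at day 3 by 0.26 ± 0.053. Neither call was stable when 1 library was left out, although the differences kept their sign. In BT549 the call was lost in 7 of 8 such fits (-0.40 to -0.32), the exception being the fit without library B of DMSO at day 3. In OVCAR8 it was lost in all 8 (0.23 to 0.30). The cause of these losses was not tested. Median-of-ratios scaling also ended the call in BT549.

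Levels in vehicle cells also differed between days. The differences are between means of vehicle libraries, but the filter and the spread behind the calls came from all libraries of the line. The vehicle libraries were also the baseline of the drug changes known when the members were picked, so these calls too are a description. In BT549 2 of the 4 members in the fit were called lower at day 5 than at day 3, beside 10.7% of genes called higher and 6.02% called lower. CTGF had 64.7 and 68.6 RPKM at day 5, against 89.7 and 88.7 at day 3 (log2 change -0.41 ± 0.052), and the call was lost without library A of day 5. AMOTL2 had 8.88 and 9.32 RPKM at day 5, against 11.6 and 12.7 at day 3 (-0.38 ± 0.070), and its call was lost without either library of day 5 or library B of day 3. CYR61 averaged 138 RPKM at day 5 and 148 at day 3, and AXL 6.96 RPKM at day 5 and 7.16 at day 3, and neither was called.

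In OVCAR8 vehicle cells 2 of 6 were called higher and 2 lower at day 5 than at day 3, beside 20.7% and 15.9% of genes. CTGF had 9.03 and 9.43 RPKM at day 5, against 14.1 and 13.8 at day 3 (log2 change -0.54 ± 0.037). ANKRD1 had 31.4 and 30.4 RPKM at day 5, against 45.5 and 42.0 at day 3 (-0.49 ± 0.056). Both were also lower at day 5 than at day 3 under EPZ015666, where CTGF averaged 17.6 RPKM at day 5 and 21.6 at day 3 and ANKRD1 29.6 RPKM at day 5 and 41.2 at day 3. CYR61 (0.14 ± 0.033) and AXL (0.21 ± 0.053) were higher at day 5. The CYR61 call was lost without any 1 of the 4 vehicle libraries, and the AXL call without library B of day 5 or either library of day 3. AMOTL2 was not called (0.11 ± 0.046), nor was AJUBA.

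On recovered reads, with 20.2% of genes called in BT549 and 36.3% in OVCAR8 between vehicle days, AJUBA was lower at day 5 in BT549 (-0.58 ± 0.179) and LATS2 (0.20 ± 0.054) and AMOTL2 (0.11 ± 0.036) were higher at day 5 in OVCAR8. CTGF is the member that was lower at day 5 than at day 3 in both lines and under both treatments. In BT549 under EPZ015666 it averaged 44.4 RPKM at day 5 and 76.8 at day 3. The OVCAR8 level under EPZ015666 at day 5 (17.6 RPKM) was above the vehicle level of either day, 9.23 RPKM at day 5 and 13.9 at day 3.

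Other genes of the pathway were listed from general knowledge with earlier results of these data known, and with the members left out. The lists are described by their counts and medians, beside the share of all genes called, and single genes with their adjusted p. Because the lists were made with results known, an adjusted p here gives the side of the threshold and is no independent test. Of 16 further targets of YAP and TEAD factors 15 were in the table. In COV362 9 passed the filter, and 5 rose and 1 fell (median log2 change 0.36, and 0.03 over all genes), where 39.3% of all genes were called higher and 31.5% lower. F3, the tissue factor that starts coagulation, had 4.32 ± 0.0148 RPKM under EPZ015666, against 0.745 ± 0.0505 under DMSO (5.81-fold, adjusted p = 9.69e-05 by limma). IGFBP3, which binds insulin-like growth factors, rose 2.56-fold to 14.3 ± 0.322 RPKM, against 5.58 ± 0.167 under DMSO (adjusted p = 0.00012 by limma). GADD45A, a growth arrest gene, rose 1.83-fold (adjusted p = 0.000331 by limma). On recovered reads 12 of the 15 rose and 2 fell in COV362, with a median of 0.43, and -0.01 over all genes, where 70.7% of all genes were called in either direction.

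In OVCAR8 these further targets were mixed. At day 5 2 of 10 rose and 5 fell (median -0.09, and -0.04 over all genes; 21.1% of all genes were called higher and 35.1% lower), and at day 3 4 of 10 fell and 6 did not pass (median -0.10, and -0.01 over all genes; 15.6% and 21.4%). IGFBP3 fell to 2.54 ± 0.0397 RPKM under EPZ015666 at day 5, against 5.25 ± 0.126 under DMSO (0.483-fold, adjusted p = 1.88e-05 by limma). FJX1 fell to 0.763-fold at day 5 (adjusted p = 0.000107 by limma) and 0.797-fold at day 3 (adjusted p = 0.000432 by limma). In BT549 1 of 7 rose and 2 fell at day 5 (median -0.11, and -0.01 over all genes), beside 17.7% and 22.7% of all genes, and 2 of 7 rose and 2 fell at day 3, beside 9.22% and 10.8%. NT5E, an ectonucleotidase that makes adenosine, rose 2.75-fold at day 5 to 4.45 ± 0.013 RPKM, against 1.62 ± 0.0009 under DMSO (adjusted p = 1.82e-05 by limma). CCDC80 fell to 0.449-fold (adjusted p = 1.97e-05 by limma). In MDAMB436, where 19.0% of all genes were called higher and 23.2% lower, 2 of 6 rose, NT5E at 1.66-fold (adjusted p = 0.00424 by limma) and GADD45A at 1.16-fold (adjusted p = 0.0171), and 2 fell, FOXF2 at 0.585-fold (adjusted p = 0.00621) and FJX1 at 0.786-fold (adjusted p = 0.0137). NT5E therefore rose in BT549, COV362 and MDAMB436 at day 5, and in OVCAR8 at day 5 by 1.09-fold (adjusted p = 0.0204 by limma). On recovered reads it fell in OVCAR8 at day 3, by 0.10 on the log2 scale (adjusted p = 0.0274 by limma-voom).

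**Figure D4:**
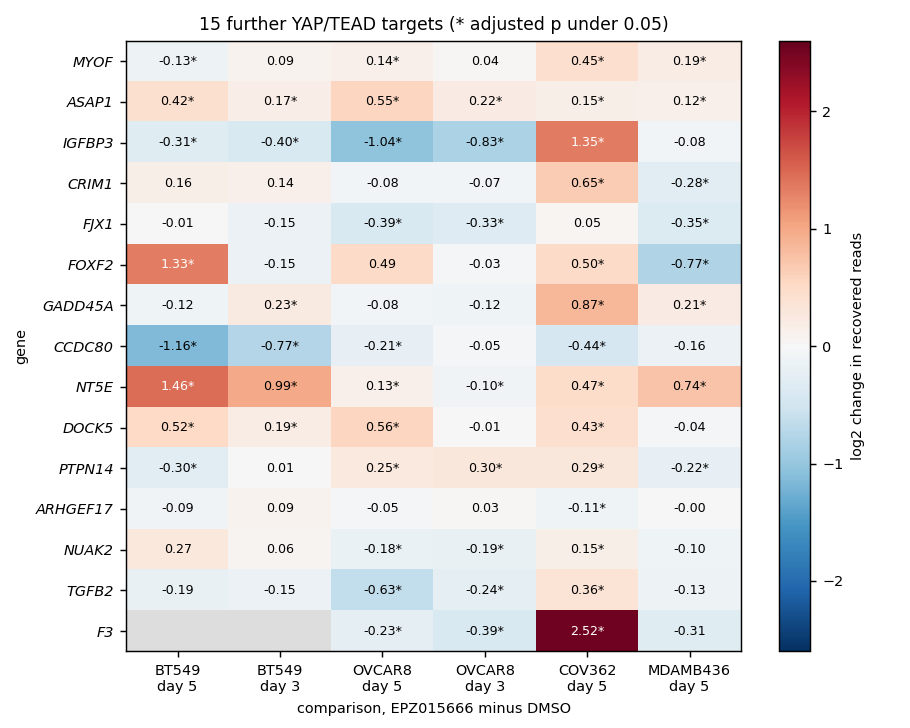
Log2 change in recovered reads, EPZ015666 minus DMSO, of 15 further YAP and TEAD targets (rows) in the 6 comparisons (columns), with the number in each cell, red for higher and blue for lower; an asterisk marks an adjusted p under 0.05 by limma-voom and grey a gene that was not tested. In COV362 12 genes carry an asterisk as higher, F3 with 2.52 as the largest, and IGFBP3 is lower in BT549 and OVCAR8.

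Among the factors themselves, YAP1 rose in OVCAR8 at day 5 to 2.5 ± 0.046 RPKM under EPZ015666, against 1.93 ± 0.072 under DMSO (1.30-fold, adjusted p = 0.000726 by limma). It fell in COV362 to 1.53 ± 0.0065 RPKM, against 1.97 ± 0.092 under DMSO (0.779-fold, adjusted p = 0.00358 by limma). COV362 thus had less YAP1 RNA under EPZ015666 than under DMSO, beside more CTGF, CYR61 and ANKRD1 RNA. A link between these changes was not tested. TEAD4 rose 1.57-fold in COV362 (adjusted p = 0.000668 by limma). In BT549 at day 5 YAP1 averaged 1.51 RPKM under EPZ015666 and 1.48 under DMSO and did not pass on recovered reads (adjusted p = 0.718 by limma-voom). In MDAMB436 it averaged 0.899 RPKM under EPZ015666 and 1.01 under DMSO and fell on recovered reads (adjusted p = 0.00565 by limma-voom). WWTR1, which encodes TAZ, stayed between 0.110 and 0.801 RPKM in group means. Of the other 23 kinases and regulators of the Hippo pathway, 4 of 7 tested rose in COV362 and 2 fell (median 0.15), beside 39.3% and 31.5% of all genes. They included WWC1 at 2.08-fold (adjusted p = 0.000256 by limma), AMOT, a paralogue of AMOTL2, at 0.565-fold (adjusted p = 0.000338 by limma) and MOB1A, a LATS cofactor, at 0.709-fold (adjusted p = 0.000477 by limma). Of the same list 3 of 7 rose and 1 fell in OVCAR8 at day 5 (median 0.11), beside 21.1% and 35.1% of all genes, with MOB1B at 1.32-fold (adjusted p = 0.000703 by limma). For BT549 at day 5, with 17.7% and 22.7% of all genes called higher and lower, 1 of 8 rose, NF2 at 1.58-fold (adjusted p = 0.00181 by limma), and 2 fell, FAT1 at 0.760-fold (adjusted p = 0.00177 by limma) and STK4 at 0.782-fold (adjusted p = 0.00603 by limma). In MDAMB436 2 of 6 fell, beside 23.2% of all genes, MOB1A at 0.823-fold (adjusted p = 0.0185 by limma) and MAP4K4 at 0.877-fold (adjusted p = 0.042 by limma).

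Relatives and neighbours of the members were few. The values on recovered reads in this paragraph were added after they had been seen, so their adjusted p is a description and no test. NOV, another CCN gene, rose in MDAMB436 to 6.87 ± 0.086 RPKM, against 3.55 ± 0.250 under DMSO (1.94-fold, adjusted p = 0.00228 by limma), a line in which CTGF did not pass and CYR61 was lower. It rose 1.13-fold in COV362 (adjusted p = 0.00629 by limma). In BT549 it fell on recovered reads, to 0.463-fold at day 5 (adjusted p = 0.00114 by limma-voom) and 0.593-fold at day 3 (adjusted p = 0.0181 by limma-voom). GAS6, the ligand of AXL, fell on recovered reads in BT549 at day 5 (0.693-fold, adjusted p = 0.00069 by limma-voom), in OVCAR8 at day 5 (0.851-fold, adjusted p = 0.00249) and day 3 (0.828-fold, adjusted p = 0.00127) and in MDAMB436 (0.679-fold, adjusted p = 0.000128). PROS1, which encodes a ligand of the AXL family, rose 1.38-fold in MDAMB436 (adjusted p = 0.00452 by limma), and the related receptor TYRO3 1.19-fold in COV362 (adjusted p = 0.0282 by limma). On recovered reads in OVCAR8 at day 5 both fell, PROS1 to 0.762-fold (adjusted p = 2.84e-05 by limma-voom) and TYRO3 to 0.804-fold (adjusted p = 0.00156 by limma-voom). PROS1 also fell at day 3 in OVCAR8 (0.841-fold, adjusted p = 0.00489 by limma-voom) and in COV362 (0.867-fold, adjusted p = 0.0125 by limma-voom).

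Genes that answer to TGF-beta or to SRF and actin, which share targets with YAP, were listed too. TGFBI fell to 0.659-fold in OVCAR8 at day 5 (adjusted p = 0.000124 by limma) and rose 1.45-fold in COV362 (adjusted p = 0.000525 by limma). SKIL rose 1.72-fold in OVCAR8 at day 5 (adjusted p = 0.000477 by limma). FLNA, the actin crosslinker filamin A, fell to 0.597-fold in BT549 at day 5 (adjusted p = 0.0008 by limma), 0.677-fold in OVCAR8 at day 5 (adjusted p = 0.000364 by limma) and 0.680-fold in MDAMB436 (adjusted p = 0.00222 by limma). TAGLN, a smooth muscle actin-binding protein, rose 1.63-fold in BT549 at day 5 (adjusted p = 0.000113 by limma). It fell to 0.831-fold in OVCAR8 at day 5 (adjusted p = 0.0428 by limma). Of the SRF and actin list 1 of 6 rose and 3 fell in BT549 at day 5, beside 17.7% and 22.7% of all genes, and 2 of 7 rose and 4 fell in OVCAR8 at day 5, beside 21.1% and 35.1%. In MDAMB436 3 of 5 fell, beside 23.2% of all genes, and in COV362 2 of 5 rose, beside 39.3%, TPM1 at 1.46-fold (adjusted p = 0.000432 by limma) and VCL at 1.26-fold (adjusted p = 0.00108 by limma). In OVCAR8 at day 5 TPM1 fell to 0.728-fold (adjusted p = 7.32e-05 by limma) and FHL2 to 0.731-fold (adjusted p = 9.21e-05 by limma). VCL fell to 0.771-fold in BT549 at day 5 (adjusted p = 0.00107 by limma) and rose 1.10-fold in OVCAR8 at day 5 (adjusted p = 0.014 by limma).

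Likeness was measured as the root mean square difference of the 6 log2 changes among the 4721 genes tested in all 4 lines, as a description. The genes nearest to CYR61 were DKK1, a secreted Wnt inhibitor, at 0.219, CDKN2AIP at 0.272, RASSF1 at 0.290, EFHD2 at 0.301 and IER3 at 0.304. DKK1 had log2 changes of 1.61 in COV362, -0.28 in OVCAR8 at day 5 and 0.26 in BT549 at day 5. The genes nearest to CTGF were MT-TH, a mitochondrial transfer RNA, at 0.299, TCTA at 0.330, STC2 at 0.342, HBEGF, a growth factor of the EGF family, at 0.353 and EMP1 at 0.363. HBEGF had log2 changes of 1.28 in COV362, 0.24 in OVCAR8 at day 5 and -0.54 in BT549 at day 5. CYR61 itself was only the 3598th gene in likeness to CTGF, at 0.786, whereas AXL was the 38th in likeness to CYR61, at 0.418.

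The labelled tissues were checked on a list of markers in day 5 vehicle cells. The listed markers ESR1 (breast), CDH1 (epithelial), PTPRC, CD3E and CD68 (immune) and VWF (endothelial) had no deposited values. The ovarian markers PAX8 and MUC16 were at 0.07 and 0 RPKM in OVCAR8 and 0.35 and 0.60 RPKM in COV362, while MSLN was at 47.3 RPKM in OVCAR8 and 22.2 in COV362. MUC16 was at 0.137 RPKM in MDAMB436. WT1, also listed as ovarian, was at 0.0388 RPKM in OVCAR8 and 0.208 in COV362, and at 0.152 in BT549 and 0.191 in MDAMB436. The breast marker GATA3 was at 4.21 RPKM in BT549 and 0.06 in MDAMB436, and at 0.321 in OVCAR8. PGR, also listed as breast, was at 0.167 RPKM in OVCAR8 and at 0 in BT549, and ERBB2 was at 1.49 to 3.86 RPKM in the 4 lines. MSLN and PAX8 were thus higher in both ovarian lines than in both breast lines. In the breast lines PAX8 was at most 0.0003 RPKM and MSLN at most 3.08 RPKM. The other listed markers of either tissue that had values did not separate the ovarian from the breast lines. VIM, a mesenchymal intermediate filament gene, was at 44.1 to 133 RPKM in the 4 lines. KRT18, an epithelial keratin gene, was at 183 RPKM in OVCAR8 and 7.92 in BT549. KRT8 and KRT7 were also higher in OVCAR8 (25.9 and 21.6 RPKM) than in BT549 (0.0387 and 0.0468). KRT19 went the other way, at 0.0176 RPKM in OVCAR8 and 0.117 in BT549, with 30.7 in COV362. EPCAM was at 0.584 RPKM in OVCAR8 and 1.78 in COV362. Of the mesenchymal list, FN1 was at 10.4 RPKM in OVCAR8 and 0.428 in MDAMB436, and SNAI2 at 12.9 in BT549 and 0.262 in COV362. The endothelial gene PECAM1 was at most 0.05 RPKM, and CDH5 was at 0.994 RPKM in COV362 and at most 0.0054 in the other lines. In COV362 under EPZ015666 CDH5 averaged 0.629 RPKM and PECAM1 0.115. The myeloid gene CD14 was at 4.82 RPKM in MDAMB436 and at most 0.874 in the other lines. The part of these genes in the results was not tested.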

How the data were processed

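Stranded poly(A) RNA sequencing of 24 libraries was deposited as RPKM, computed by the authors. The genome GRCh38 and the counting tool featureCounts are named per the submitters' processing notes. Versions and the aligner are not stated there or in the labels. Multiplied by the whole gene span in GENCODE 29, introns included, 100% of the nonzero deposited RPKM values below 1000 reads gave whole reads within 0.02 of a read. Spans were found for 16559 genes and not for 32.

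RPKM was transformed as log2(RPKM + 1). Fold changes on this scale understate the change of low genes. Genes with a mean of at least 1 RPKM over a line's libraries were tested with limma 3.58.1 in R 4.3.3 (trend option, 1 mean per group), two-sided, with Benjamini-Hochberg adjustment at 0.05. Pairs of lines and the F test used all 24 libraries. An adjusted p from limma is over all genes tested. The ratios printed are of mean RPKM. The fit on recovered reads used limma-voom with at least 1 CPM in 2 libraries and the totals behind the deposited values as library sizes. The limma fit per line was tested on simulated data. The fit on recovered reads and the fit over all 24 libraries were not.

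The members and the other gene lists were chosen with earlier results of these data known. The text names all members, up to 3 called genes per list and comparison with the smallest adjusted p, and the 5 genes most like CTGF and CYR61. GADD45A in MDAMB436, NT5E, TAGLN and VCL in OVCAR8, WWTR1 and YAP1 beyond its calls were added after their values were seen. So were the recovered-read values of NOV, GAS6, PROS1 and TYRO3 and the values of DKK1 and HBEGF. A result of the TGF-beta list and the counts of that list, are not reported here. Promoter sequences are from RefSeq (GRCh38.p14). The counting intervals of single genes were not computed, since the 2 libraries of a group carry the spread.

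The alternatives were a pseudocount of 0.1, no filter, a mean of at least 5 RPKM, scaling by median of ratios, a block for the letters A and B, 1 fit over all libraries, recovered reads, and leaving out each library.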

Additional observations from a re-analysis of the deposited data

Results flagged for a closer look

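For 8 results limma's fit of the difference between groups called the effect of EPZ015666 as unequal. The members were picked with these drug results known, so the values are a description and no test of them. The change of CTGF differed between day 5 and day 3 by -0.36 on the log2 scale in BT549 and by 0.265 in OVCAR8. Between the 4 lines at day 5 the F test called the change of CTGF (distance between the highest and lowest change 1.717), CYR61 (1.894), AMOTL2 (0.805), AJUBA (0.431), ANKRD1 (1.494) and AXL (0.932), beside 74.4% of all tested genes. For ANKRD1 the extremes were COV362 (log2 change 1.43) and OVCAR8 (-0.06), the lines that expressed it. In BT549 ANKRD1 was listed at 0 or had 1 read, so the F test includes a line with almost no reads of it.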

How the results depend on the processing

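No called log2 change of a member was reversed under other settings. Some changes that were not called did change sign when a library was left out. Examples are AJUBA in OVCAR8 at day 3 (0.065, range -0.037 to 0.167) and CTGF in MDAMB436 (-0.028, range -0.079 to 0.023). Among the log2 changes of single members, 1121 values under other settings stayed called or stayed not called, 66 lost their call and 6 gained one. The cause was not tested. As reported, the numbers of genes past the threshold were 2527 (BT549 day 5), 1250 (BT549 day 3), 1044 (BT549 vehicle days), 373 (BT549 drug effect between days), 3558 (OVCAR8 day 5), 2341 (OVCAR8 day 3), 2322 (OVCAR8 vehicle days), 472 (OVCAR8 drug effect between days), 4460 (COV362) and 2640 (MDAMB436). With a mean of at least 5 RPKM they were 1102, 516, 590 and 231 in the 4 BT549 comparisons in that order, 1490, 973 and 1022 in the first 3 of OVCAR8, 1824 in COV362 and 1172 in MDAMB436. On recovered reads they were 5079, 3024, 2421 and 1233 in BT549, 7027, 4812, 4616 and 1913 in OVCAR8, 8896 in COV362 and 5862 in MDAMB436. Without a filter they were 113 (BT549 drug effect between days), 5730 (OVCAR8 day 5), 149 (OVCAR8 drug effect between days) and 7266 (COV362). In 1 fit over all 24 libraries they were 2487 (BT549 day 3), 2275 (BT549 vehicle days), 1591 (BT549 drug effect between days, with 3 members) and 832 (OVCAR8 drug effect between days). For the drug effect between days 0 members passed limma without a filter or with the block in either line, or after median-of-ratios scaling in BT549; 2 to 3 members then had an unadjusted p under 0.05 in BT549 and 1 in OVCAR8.

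The letters A and B could pair the libraries. With only 2 pairs in a comparison the correlation of their deviations ran from -0.196 (BT549 day 3) to 0.214 (COV362), and 2 pairs are too few to tell whether the letters pair the libraries. With the replicate block 2 of 4 members kept their call in BT549 at day 3 (CTGF and AMOTL2 lost it), 2 of 3 at day 5 (AMOTL2 lost it), 3 of 4 in OVCAR8 at day 3 (AXL lost it) and 2 of 3 in MDAMB436 (AMOTL2 lost it). CTGF also lost both calls of the drug effect between days, where 91 genes in BT549 and 5 in OVCAR8 passed. An exchanged pairing in BT549 at day 3, chosen after seeing the data, gave 1597 genes, beside 964 with the letters as labelled.

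Leaving out 1 library at a time gave 2 to 3 members and 1387 to 2801 genes in BT549 at day 5, 2 to 4 members and 619 to 1114 genes at day 3, 0 to 2 members and 156 to 1127 genes between vehicle days, and 0 to 1 members and 0 to 608 genes for the drug effect between days. OVCAR8 had 4 to 5 members and 2698 to 3582 genes at day 5, 3 to 5 members and 1380 to 2238 genes at day 3, 2 to 4 members and 1178 to 2309 genes between vehicle days, and 0 members and 0 to 6 genes for the drug effect between days. Where 0 members were called for the drug effect between days in these fits, 1 to 3 had an unadjusted p under 0.05 in BT549 and 1 to 2 in OVCAR8. COV362 had 5 members in each of these fits and 3681 to 4062 genes, and MDAMB436 2 to 3 members and 1338 to 2295 genes. Where limma called 0 genes, 1007 (BT549) and 1438 to 1952 (OVCAR8) had an unadjusted p under 0.05. Where it called 0 members between BT549 vehicle days, 2 had one. In these fits a lone library takes its spread from the remaining groups.

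With 2 libraries a group, the calls of small changes such as those of AMOTL2 in BT549 and MDAMB436 could be lost when a library was left out. The log2 changes of AMOTL2 kept their sign in these fits. They ran from -0.255 to -0.191 in BT549 at day 5 and from -0.359 to -0.181 at day 3. In MDAMB436 they ran from -0.184 to -0.142. Why the calls were lost was not tested. AJUBA had 102 to 859 reads per library, and ANKRD1 could not be compared in BT549.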
